A study of Homo sapiens with 9 samples.

Results

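Interferons are cytokines that signal through cell surface receptors, the Janus kinases JAK1 and TYK2, and a transcription factor complex with STAT2 and IRF9, which binds interferon-stimulated response elements near target genes. The targets, known as interferon-stimulated genes (ISGs), encode sensors of foreign RNA, enzymes that degrade it or block its translation, membrane proteins that restrict viral entry and release, and a ubiquitin-like modifier. In monocytes and macrophages this program is a first line of antiviral defense, and many ISGs are also kept at a low basal level in resting cells.

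The genes described here are 40 ISGs out of 60623 gene identifiers in the expression files. They were chosen by gene name, as known members of the interferon program, after the rise of OAS1 in the cells expressing AML1-ETO had been seen in these data. The comparison of AML1-ETO cells at 48 h with 0 h therefore took part in the choice, and its values below are a description. All 40 names were found once each, and the genes lie on 16 chromosomes.

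The data were 9 RNA-seq libraries of U937, an immature human monoblast line. Stable lines carried an empty vector, AML1-ETO (the fusion of the AML1 DNA-binding domain with the corepressor ETO) or ETO2-GLIS2 (the fusion of the corepressor ETO2 with the DNA-binding domain of GLIS2), the fusions with an N-terminal HA tag. The fusion lines were each 1 selected clone, the transgenes were under a doxycycline-inducible retroviral vector, and all 3 lines received 5 µg/ml doxycycline for 0, 12 or 48 h. There was 1 library for each line and time, so that no difference between conditions could be tested against replicates, and differences between the lines cannot be told apart from differences between clones.

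Expression was given as FPKM, reads scaled to the length of the gene and the depth of the library, which can be compared between genes. Folds are ratios of FPKM, and log2 fold changes were taken after adding 0.01 FPKM. The libraries held 15136403 to 18443646 reads on genes, as recovered from the FPKM values. The 95% intervals below are exact binomial intervals of the ratio of reads between a pair of libraries and cover counting error only, not the spread between cultures. The share of all genes with an interval above or below 0 was not computed. Counts of members by interval therefore have no background beside them. RUNX1T1, which encodes ETO, was at 0.512, 22.2 and 28.7 FPKM at 0, 12 and 48 h in AML1-ETO cells and at 0.024 or lower in the other lines. GLIS2 went from 2.39 to 6.79 and 8.85 FPKM in ETO2-GLIS2 cells and was between 2.47 and 5.6 FPKM in the other lines. The monocytic genes CD4, LYZ, AZU1, SPI1 and CD33 were above 5 FPKM in all 9 libraries. Of the other monocytic genes, CD68 was at or near 0 in every library, MPO was between 0.154 and 0.78 FPKM, and ITGAM was between 0.832 and 11.5 FPKM. In AML1-ETO cells at 48 h LYZ fell from 969.7 to 45.1 FPKM, and the genes of the mitochondrial genome took 3.81% of summed FPKM against 8.32% to 21.3% in the other libraries. Of 9 markers of T, B, red, epithelial and other cells, CD3E, CD3D, MS4A1, HBB, EPCAM and PPBP were at 0 in all libraries, and the sum of the 9 was 1.95 to 6.82 FPKM, with 2.62 in AML1-ETO cells at 48 h. That library stood apart from the others in these ways, every large value below rests on it, and the part of these shifts in the results was not tested.

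Promoters of ISGs carry the interferon-stimulated response element, whose core is GAAA followed, after any 2 bases, by a second GAAA, or the reverse complement. The sequences below are the 170 bases before the start of 7 members, 5′ to 3′ on the strand of the gene, from RefSeq on GRCh38.p14. They were chosen to show OAS1, the 3 members ISG15, IFIT1 and IFI6 that reached high levels, HERC5, which carried the core and rose 2.29-fold, EPSTI1, which carried the core and was listed at 0, and HERC6, which carried no match. Capitals mark matches to the core with a spacing of 2 bases, and in OAS1 of 1 base. HERC5, HERC6, OAS1, ISG15 and IFIT1 read from the plus strand and IFI6 and EPSTI1 from the minus strand.
OAS1, chr12:112906792-112906961: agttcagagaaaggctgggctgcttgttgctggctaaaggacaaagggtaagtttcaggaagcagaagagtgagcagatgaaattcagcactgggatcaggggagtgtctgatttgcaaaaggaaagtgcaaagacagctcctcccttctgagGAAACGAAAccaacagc
ISG15, chr1:1013327-1013496: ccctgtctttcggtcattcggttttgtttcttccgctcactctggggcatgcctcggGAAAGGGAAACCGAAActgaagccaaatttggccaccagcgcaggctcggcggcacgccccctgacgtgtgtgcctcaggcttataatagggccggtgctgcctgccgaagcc
IFIT1, chr10:89392453-89392622: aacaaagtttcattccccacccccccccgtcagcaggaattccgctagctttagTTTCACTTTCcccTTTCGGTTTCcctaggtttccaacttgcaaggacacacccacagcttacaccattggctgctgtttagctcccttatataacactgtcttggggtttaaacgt
IFI6, chr1:27672193-27672362: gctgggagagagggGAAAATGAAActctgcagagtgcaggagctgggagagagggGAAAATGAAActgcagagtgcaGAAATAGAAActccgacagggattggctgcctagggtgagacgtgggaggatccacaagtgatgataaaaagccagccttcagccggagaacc
HERC5, chr4:88456949-88457118: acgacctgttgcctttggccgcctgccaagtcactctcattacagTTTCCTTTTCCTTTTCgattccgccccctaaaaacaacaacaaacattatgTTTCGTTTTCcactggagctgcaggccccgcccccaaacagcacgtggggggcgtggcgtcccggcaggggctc
EPSTI1, chr13:42992242-42992411: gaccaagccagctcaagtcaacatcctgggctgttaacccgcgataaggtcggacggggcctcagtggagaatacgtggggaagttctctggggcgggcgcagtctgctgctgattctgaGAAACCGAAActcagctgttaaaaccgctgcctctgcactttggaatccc
HERC6, chr4:88378682-88378851: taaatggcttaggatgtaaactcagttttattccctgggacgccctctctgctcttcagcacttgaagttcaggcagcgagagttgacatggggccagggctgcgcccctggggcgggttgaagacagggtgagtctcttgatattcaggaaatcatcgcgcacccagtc

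The windows held 2 overlapping cores in ISG15, 2 separate cores in IFIT1 and 3 each in IFI6 and HERC5. The match in OAS1 lay closest to the start of the gene, and EPSTI1 had 1 core.

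In 33 members with a RefSeq promoter window of 250 bases before and 50 bases after the start, the core with a spacing of 2 bases was found in 23 (69.7%). The same core was in 3.65% of all 27304 promoter windows and in 2.71% of the 8338 windows of other genes with a mean of at least 1 FPKM. With a spacing of 1 base, as in OAS1, 12 members held a match (36.4%, against 3.22% of all windows), and 29 members (87.9%, against 6.55%) held a match of either spacing. CMPK2, HERC6, PARP9 and SAMD9L held none. The hexamer TGTGGT, bound by the AML1 DNA-binding domain, was present on either strand in 1 member, IFITM1 (3.03%). It was in 13.1% of all windows and in 8.97% of those of other genes with a mean of at least 1 FPKM. With 33 windows of members, this difference was not tested. Every window was searched on both strands, matches were allowed to overlap, and a match describes these letters only, not a bound site.

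In AML1-ETO cells the interferon program was far higher at 48 h than at 0 or 12 h. At 48 h, 35 of the 40 members had a mean of at least 1 FPKM over the 2 libraries, and 34 of them (97.1%) were past 2-fold above 0 h, against 17.1% of all 11968 genes that passed the same filter, and none was past 2-fold below, against 11.3%. The members with a mean of at least 1 FPKM over the 9 libraries, 32 in number, had a median log2 fold change of 4.36, against 0.18 for all genes. At 12 h 21 of the 40 passed the filter, and none was called in either direction (6.40% of genes called higher and 2.34% lower). The other members were too low to be called. The median was 0.27 against 0.18, with a counting interval above 0 for 12 members and below 0 for 5. The summed FPKM of the 40 members made 0.102%, 0.120% and 1.79% of all FPKM at 0, 12 and 48 h in this line, and 0.084% to 0.183% in the other lines.

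A gene can pass either of these filters on the mean through the 48 h library alone. The count and the median were therefore also taken on genes with at least 1 FPKM at 0 h. Of 21 such members 20 were past 2-fold above 0 h, against 11.2% of 11337 genes. Their median log2 fold change was 3.64, against 0.12 for all such genes. Rescaling the libraries by the median ratio of expressed genes moved the median of all genes in AML1-ETO cells at 48 h from 0.18 to 0.03, and 34 members were called higher under that scaling as well.

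**Figure D1:**
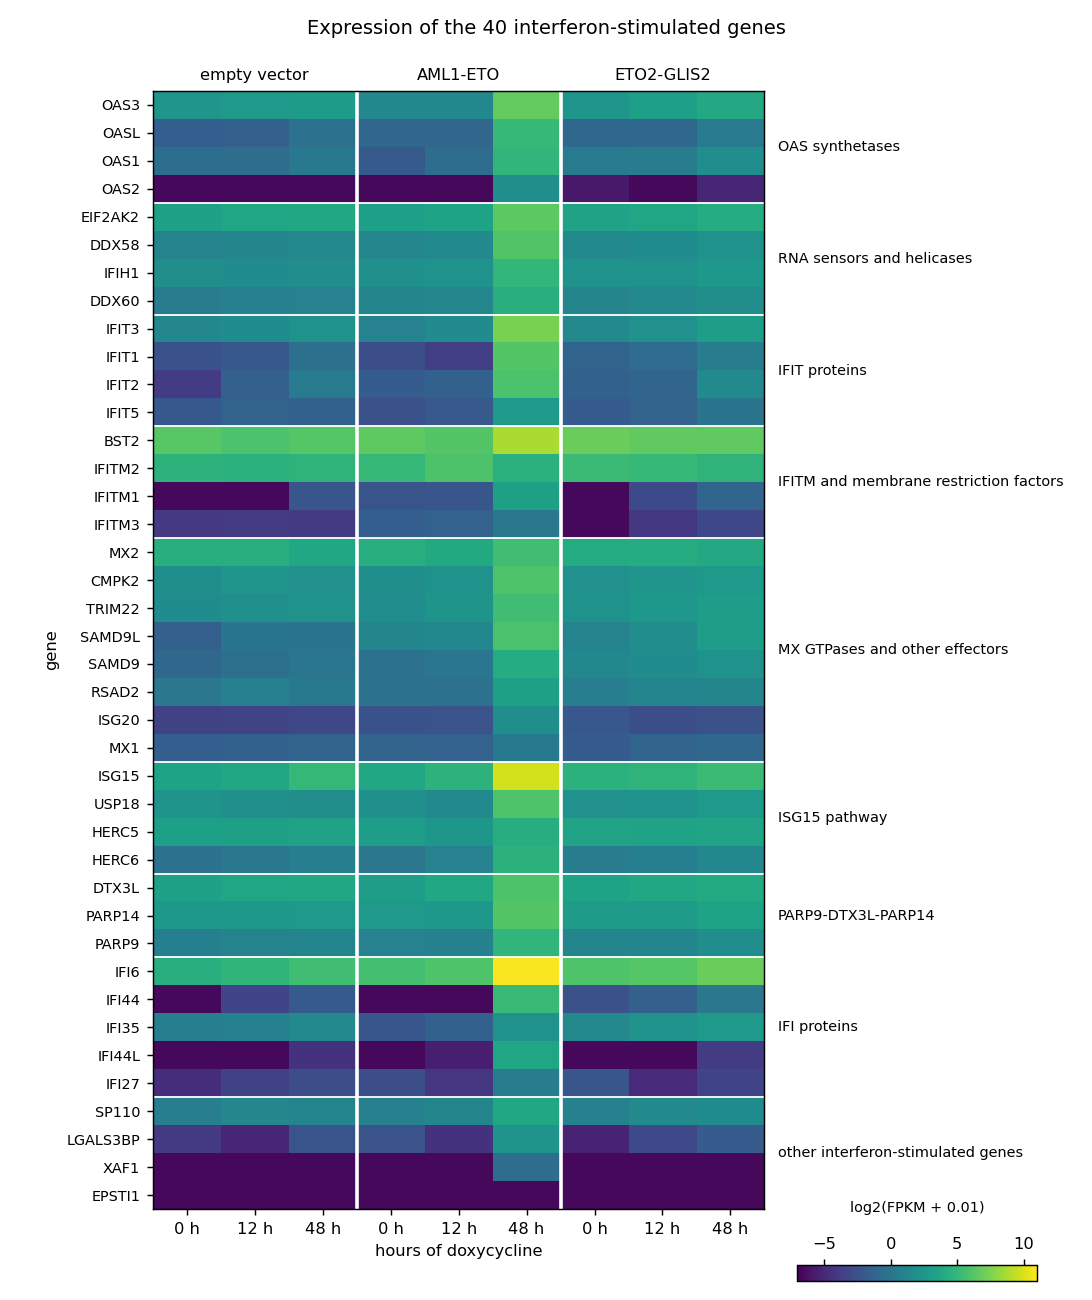
Expression of the 40 interferon-stimulated genes in the 9 libraries as log2(FPKM + 0.01) in color, with the genes in rows grouped by role and the libraries in columns by line and hours of doxycycline. The AML1-ETO column at 48 h holds the highest value of 37 genes, IFITM2 and IFI35 are exceptions, and EPSTI1 is dark throughout.

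The oligoadenylate synthetases (OAS) make a second messenger that activates RNase L when they meet double-stranded RNA. Their genes OAS1, OAS3 and OAS2 are neighbors at chr12:112906962-113011723 on GRCh38.p14. In the order 0, 12 and 48 h, OAS1 was at 0.697, 0.682 and 1.2 FPKM in empty vector cells, then 0.256, 0.669 and 28.5 in AML1-ETO cells, while ETO2-GLIS2 cells had 1.42, 1.57 and 3.6. The OAS1 level in AML1-ETO cells rose 111-fold by 48 h (95% interval 72.6 to 180), from 21 to 2143 reads. OAS3 had 5.56, 6.45 and 7.71 FPKM with the empty vector, 2.63, 2.61 and 102 with AML1-ETO and 5.14, 8.91 and 14.4 with ETO2-GLIS2, a rise of 38.7-fold (34.8 to 43.1) in AML1-ETO cells. OAS2 was at 0, 0 and 0 FPKM in empty vector cells, then 0, 0 and 3.67 in AML1-ETO cells, while ETO2-GLIS2 cells had 0.00866, 0 and 0.0195. OAS2 was read 0 to 2 times in 8 libraries and 347 times in AML1-ETO cells at 48 h, at least 126-fold above the 3 reads that a count of 0 allows at 0 h. OASL, a related protein that enhances RNA sensing by RIG-I, lies apart from the cluster on the same chromosome. OASL had 0.315, 0.357 and 0.794 FPKM with the empty vector, 0.48, 0.461 and 34 with AML1-ETO and 0.524, 0.493 and 1.32 with ETO2-GLIS2. All 4 genes had their highest value in the same library, and none was past 2-fold at 12 h except OAS1 in AML1-ETO cells, at 51 reads and below the filter. In ETO2-GLIS2 cells at 48 h OAS1 was called at 2.54-fold (2.06 to 3.15) and OAS3 at 2.79-fold (2.57 to 3.04).

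The RNA sensors RIG-I (gene name DDX58 in the files) and MDA5 (IFIH1) detect viral RNA in the cytoplasm, DDX60 is a related helicase, and EIF2AK2 encodes PKR, which halts translation on double-stranded RNA. All 4 were expressed in uninduced cells, and all 4 rose in AML1-ETO cells at 48 h. DDX58 was at 2.09, 2.41 and 2.83 FPKM in empty vector cells, then 2.55, 3.09 and 68.4 in AML1-ETO cells, while ETO2-GLIS2 cells had 2.91, 3.34 and 4.55. EIF2AK2 had 9.8, 11.8 and 12.9 FPKM with the empty vector, 8.79, 11.1 and 89.1 with AML1-ETO and 10.2, 12 and 17.5 with ETO2-GLIS2. The rise was 26.8-fold (23.3 to 31.1) for DDX58 and 10.1-fold (9.62 to 10.7) for EIF2AK2. IFIH1 was at 3.77, 3.41 and 3.55 FPKM in empty vector cells, then 4.13, 4.85 and 30 in AML1-ETO cells, while ETO2-GLIS2 cells had 4.58, 4.64 and 6.18. DDX60 had 1.54, 1.78 and 1.97 FPKM with the empty vector, 2.42, 2.55 and 19.7 with AML1-ETO and 2.23, 2.83 and 3.69 with ETO2-GLIS2. These were the smaller steps of the group, at 7.27-fold and 8.14-fold. Within the ETO2-GLIS2 line none of the 4 was called, although the counting interval lay above 0 for each at 48 h, with log2 fold changes of 0.43 to 0.78. On the exons of DDX58, 43.2% of bases overlap another annotated gene on the same strand, so that its reads may be divided or left out.

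IFIT proteins bind the ends of foreign RNA and block its translation. IFIT2, IFIT3, IFIT1 and IFIT5 lie on chromosome 10, and this group had the highest median log2 fold change of the role groups at 48 h in AML1-ETO cells (7.0). IFIT1 was at 0.173, 0.229 and 0.774 FPKM in empty vector cells, then 0.144, 0.0702 and 73.5 in AML1-ETO cells, while ETO2-GLIS2 cells had 0.435, 0.606 and 1.52. IFIT1 went from 11 to 5 and then to 5159 reads in AML1-ETO cells, 511-fold above 0 h (285 to 1024). IFIT2 had 0.0604, 0.357 and 1.4 FPKM with the empty vector, 0.281, 0.366 and 58.7 with AML1-ETO and 0.359, 0.453 and 2.87 with ETO2-GLIS2. IFIT3 was at 2.57, 3.44 and 4.76 FPKM in empty vector cells, then 2.0, 3.27 and 163 in AML1-ETO cells, while ETO2-GLIS2 cells had 2.78, 4.3 and 7.95. IFIT5 had 0.229, 0.41 and 0.371 FPKM with the empty vector, 0.165, 0.241 and 6.62 with AML1-ETO and 0.283, 0.402 and 0.941 with ETO2-GLIS2. The folds in AML1-ETO cells were 209 for IFIT2, 81.7 for IFIT3 and 40.2 for IFIT5. IFIT2 was also the member with the largest called rise in ETO2-GLIS2 cells, 7.98-fold (5.31 to 12.4), but in empty vector cells it went from 4 to 88 reads, so that the ETO2-GLIS2 change less that of the empty vector was negative (-1.37 on the log2 scale). IFIT3 was called in ETO2-GLIS2 cells as well, at 2.86-fold (2.33 to 3.53).

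**Figure D2:**
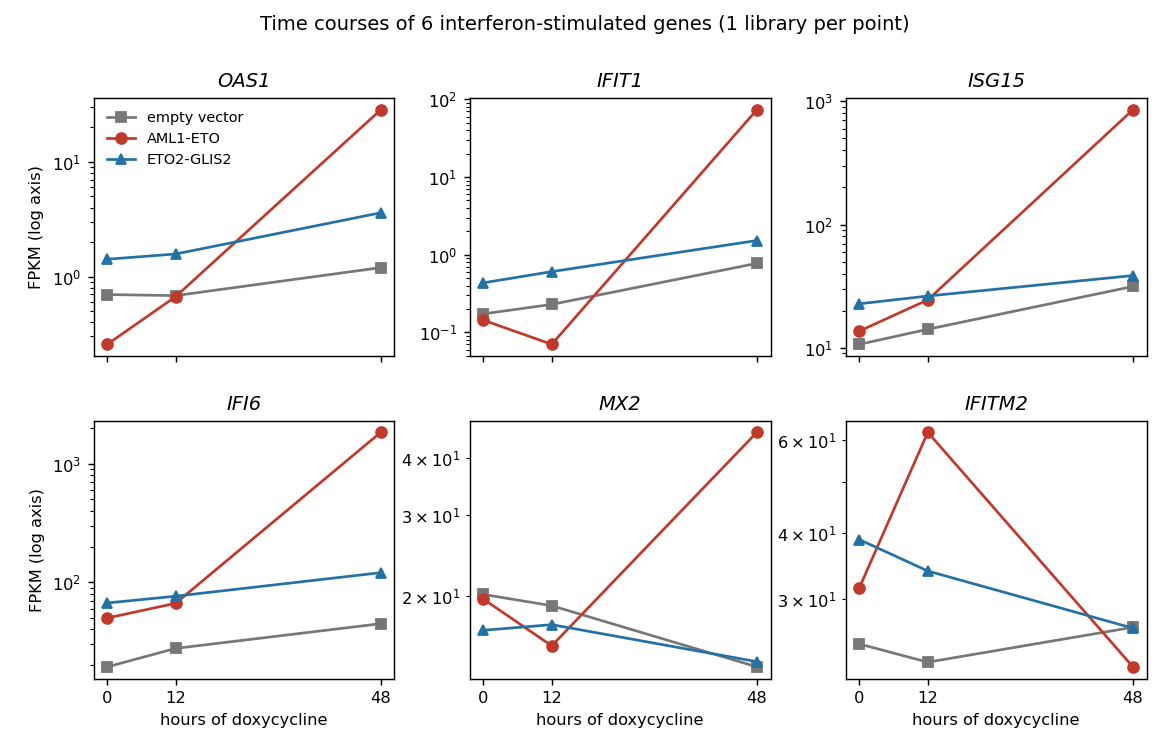
FPKM of 6 members on log axes against hours of doxycycline in the empty vector, AML1-ETO and ETO2-GLIS2 lines, with 1 library per point and a separate axis range for each gene. OAS1, IFIT1, ISG15 and IFI6 take their large step after 12 h, to 28.5, 73.5, 856 and 1838 FPKM in AML1-ETO cells at 48 h, MX2 rises less, and IFITM2 peaks at 12 h.

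The IFITM proteins and BST2 (tetherin) act at membranes, where they hinder viral fusion and the release of particles. BST2 was at 78.4, 61 and 77.8 FPKM in empty vector cells, then 94.1, 72.6 and 422 in AML1-ETO cells, while ETO2-GLIS2 cells had 118, 96.5 and 99.1. BST2 was thus abundant in every library, and it rose 4.49-fold (4.26 to 4.74) in AML1-ETO cells at 48 h after a lower value at 12 h. IFITM1 had 0, 0 and 0.208 FPKM with the empty vector, 0.193, 0.208 and 9.27 with AML1-ETO and 0, 0.119 and 0.457 with ETO2-GLIS2. IFITM1 went from 3 to 132 reads in AML1-ETO cells, while it stood at 0 to 7 reads in the other lines. IFITM2, its neighbor on chromosome 11, was the exception among the members. IFITM2 was at 24.7, 22.8 and 26.5 FPKM in empty vector cells, then 31.5, 62.1 and 22.3 in AML1-ETO cells, while ETO2-GLIS2 cells had 38.9, 33.9 and 26.4. Its level in AML1-ETO cells was higher at 12 h (log2 fold change 0.98) and below the uninduced level at 48 h (-0.50, 95% interval -0.66 to -0.34), and in ETO2-GLIS2 cells it also fell short of 0 h at 48 h (-0.56). IFITM3, next to IFITM1, had at most 20 reads and 1.14 FPKM, both in AML1-ETO cells at 48 h. The IFITM genes are near-identical paralogs, so that the division of reads among them is uncertain.

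A larger group of effectors included the MX GTPases, which trap viral nucleoproteins, RSAD2 (viperin) and its neighbor CMPK2, which make an antiviral nucleotide, the exonuclease ISG20, the ubiquitin ligase TRIM22, and SAMD9 and SAMD9L, which restrict translation and growth. All 8 genes were higher in AML1-ETO cells at 48 h than at 0 h, and 7 were called. MX2 had 20.2, 19.1 and 14 FPKM with the empty vector, 19.7, 15.6 and 45.4 with AML1-ETO and 16.9, 17.3 and 14.4 with ETO2-GLIS2. MX2 was among the most abundant members before induction, and its rise was modest, 2.30-fold (2.22 to 2.39). MX1, its neighbor and a classical marker of interferon, remained low and was not called, with 0.399, 0.384 and 1.19 FPKM in AML1-ETO cells (2.98-fold at 48 h, 2.19 to 4.11) and 0.283 to 0.511 FPKM in the other libraries. CMPK2 was at 3.82, 5.1 and 4.27 FPKM in empty vector cells, then 3.9, 4.7 and 65.5 in AML1-ETO cells, while ETO2-GLIS2 cells had 4.23, 5.13 and 6.38. RSAD2 had 1.11, 1.76 and 1.21 FPKM with the empty vector, 0.907, 0.81 and 9.34 with AML1-ETO and 1.62, 2.16 and 2.34 with ETO2-GLIS2. CMPK2 and RSAD2, which share a region at chr2:6840553-6898239, rose 16.8-fold and 10.3-fold. TRIM22 was at 3.41, 4.18 and 4.77 FPKM in empty vector cells, then 3.51, 4.91 and 44 in AML1-ETO cells, while ETO2-GLIS2 cells had 4.45, 5.9 and 8.58. ISG20 had 0.0772, 0.0922 and 0.109 FPKM with the empty vector, 0.168, 0.181 and 3.93 with AML1-ETO and 0.219, 0.148 and 0.162 with ETO2-GLIS2. TRIM22, moderately expressed before induction, and ISG20, near 0, rose 12.5-fold and 23.4-fold. SAMD9 was at 0.529, 0.771 and 1.06 FPKM in empty vector cells, then 0.836, 1.03 and 17.3 in AML1-ETO cells, while ETO2-GLIS2 cells had 2.59, 3.37 and 4.69. SAMD9L had 0.344, 0.979 and 0.954 FPKM with the empty vector, 2.4, 2.62 and 57.5 with AML1-ETO and 2.11, 3.58 and 8.28 with ETO2-GLIS2. The SAMD9 pair rose 20.7-fold and 24.0-fold in AML1-ETO cells, and SAMD9L was called in ETO2-GLIS2 cells too, at 3.93-fold (3.44 to 4.51).

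ISG15 is a ubiquitin-like protein that is attached to targets by the ligase HERC5 and removed by USP18, which also dampens the type I receptor, and HERC6 is a relative of HERC5. ISG15 was at 10.6, 14.1 and 31.4 FPKM in empty vector cells, then 13.6, 24.4 and 856 in AML1-ETO cells, while ETO2-GLIS2 cells had 22.7, 26.2 and 38.5. ISG15 rose 62.8-fold (54.5 to 72.7) in AML1-ETO cells, and it was 1 of the 2 members called in empty vector cells, at 2.95-fold (2.44 to 3.58). USP18 had 5.0, 4.09 and 3.71 FPKM with the empty vector, 4.15, 3.03 and 67.5 with AML1-ETO and 4.23, 4.81 and 6.51 with ETO2-GLIS2. HERC6 was at 0.828, 1.13 and 1.58 FPKM in empty vector cells, then 1.1, 1.95 and 23.3 in AML1-ETO cells, while ETO2-GLIS2 cells had 1.47, 1.68 and 2.6. HERC5 had 9.1, 9.44 and 10.1 FPKM with the empty vector, 8.3, 5.79 and 19 with AML1-ETO and 11.6, 10.3 and 11.5 with ETO2-GLIS2. USP18 and HERC6 rose 16.3-fold and 21.1-fold in AML1-ETO cells, whereas HERC5 dipped at 12 h (log2 fold change -0.52) and ended 2.29-fold (2.08 to 2.52) above 0 h. HERC5 and HERC6 are adjacent on chromosome 4, and the window of HERC5 held 3 cores and that of HERC6 none, as printed above.

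PARP9, DTX3L and PARP14 lie together on chromosome 3 and encode proteins of the ADP-ribosyltransferase family and a ubiquitin ligase. PARP14 was at 6.14, 5.91 and 6.37 FPKM in empty vector cells, then 6.68, 5.93 and 73.9 in AML1-ETO cells, while ETO2-GLIS2 cells had 7.5, 7.73 and 11.1. PARP9 had 1.69, 2.02 and 2.13 FPKM with the empty vector, 1.94, 1.89 and 28.7 with AML1-ETO and 2.32, 2.35 and 3.52 with ETO2-GLIS2. DTX3L was at 9.86, 12.6 and 12.9 FPKM in empty vector cells, then 8.44, 13.1 and 62.1 in AML1-ETO cells, while ETO2-GLIS2 cells had 10.9, 13.9 and 15.7. All 3 rose in AML1-ETO cells at 48 h, by 11.1-fold, 14.8-fold and 7.35-fold, and none was called in the other lines.

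The IFI genes were named for induction by interferon, and several encode small membrane or mitochondrial proteins. IFI6, which limits cell death and the replication of flaviviruses, had the highest mean FPKM of the members. IFI6 had 19.3, 27.7 and 44.8 FPKM with the empty vector, 49.9, 66.5 and 1838 with AML1-ETO and 66.9, 76.3 and 120 with ETO2-GLIS2. It rose 36.8-fold (34.1 to 39.8) in AML1-ETO cells and 2.31-fold (2.0 to 2.69) in empty vector cells. IFI44 was at 0, 0.0973 and 0.255 FPKM in empty vector cells, then 0, 0 and 36.2 in AML1-ETO cells, while ETO2-GLIS2 cells had 0.16, 0.357 and 1.17. IFI44L had 0, 0 and 0.0381 FPKM with the empty vector, 0, 0.0127 and 11.7 with AML1-ETO and 0, 0 and 0.0597 with ETO2-GLIS2. The adjacent genes IFI44L and IFI44 on chromosome 1 were read 0 times in AML1-ETO cells at 0 h and 908 and 1122 times at 48 h, at least 329.8-fold and 408-fold above the 3 reads that a count of 0 allows. IFI35 was at 1.59, 1.84 and 2.73 FPKM in empty vector cells, then 0.214, 0.361 and 4.6 in AML1-ETO cells, while ETO2-GLIS2 cells had 2.75, 4.73 and 6.72. IFI35 differed from the other called members in being highest in ETO2-GLIS2 cells at 48 h (2.45-fold above 0 h, 1.92 to 3.13), and in AML1-ETO cells it rose 21.5-fold from 7 reads. IFI27 was at or below 0.209 FPKM in 8 libraries and at 1.57 FPKM (99 reads) in AML1-ETO cells at 48 h, under the filter.

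The remaining members were SP110, a nuclear body protein, LGALS3BP, a secreted galectin-binding protein, XAF1, which promotes apoptosis, and EPSTI1. SP110 had 1.63, 2.45 and 2.21 FPKM with the empty vector, 1.81, 2.39 and 13.1 with AML1-ETO and 1.89, 2.89 and 3.42 with ETO2-GLIS2. LGALS3BP was at 0.0539, 0.0193 and 0.19 FPKM in empty vector cells, then 0.176, 0.0379 and 5.09 in AML1-ETO cells, while ETO2-GLIS2 cells had 0.0158, 0.114 and 0.268. SP110 rose 7.23-fold and LGALS3BP 28.9-fold, the latter from 10 reads. XAF1 was listed at 0 in 8 libraries and at 0.666 FPKM in AML1-ETO cells at 48 h, and EPSTI1 was listed at 0 in all 9. CD68, a gene of monocytic cells, was also at or near 0. CD68 shares 81.6% of its exon bases with other genes on the same strand, whereas EPSTI1 shares 0% on either strand. Whether the counting of reads gave the 0 of EPSTI1 was not tested, so that this 0 is not taken as a level. XAF1 and SP110 share 38.3% and 19.4% of their exon bases with genes on the other strand, and IFITM3 and IFITM1 16.3% and 10.6%, and the library kit did not mark strand. Among the members, the same-strand overlaps of at least 5% beside DDX58 were 23.1% for IFI6, 21.1% for IFITM1, 12.1% for IFIT2 and 5.6% for TRIM22.

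The 6 members not called in AML1-ETO cells at 48 h were IFITM2 by direction, MX1, IFITM3, IFI27 and XAF1 by level, and EPSTI1, which was listed at 0 in every library. Of the 40 members 37 had their highest value of the 9 libraries in this one, 36 at more than 2 times and 27 at more than 5 times the next highest library. Among all 11968 genes tested there, 24 members were in the first 200 by log2 fold change, 7 in the first 100 and 2 in the first 20. At 12 h the counting interval lay above 0 for 12 members and below 0 for 5 (BST2, MX2, HERC5, USP18 and PARP14), all with log2 fold changes between -0.52 and 1.35, and in these bulk samples a change in the number of expressing cells and in the RNA per cell cannot be told apart.

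**Figure D3:**
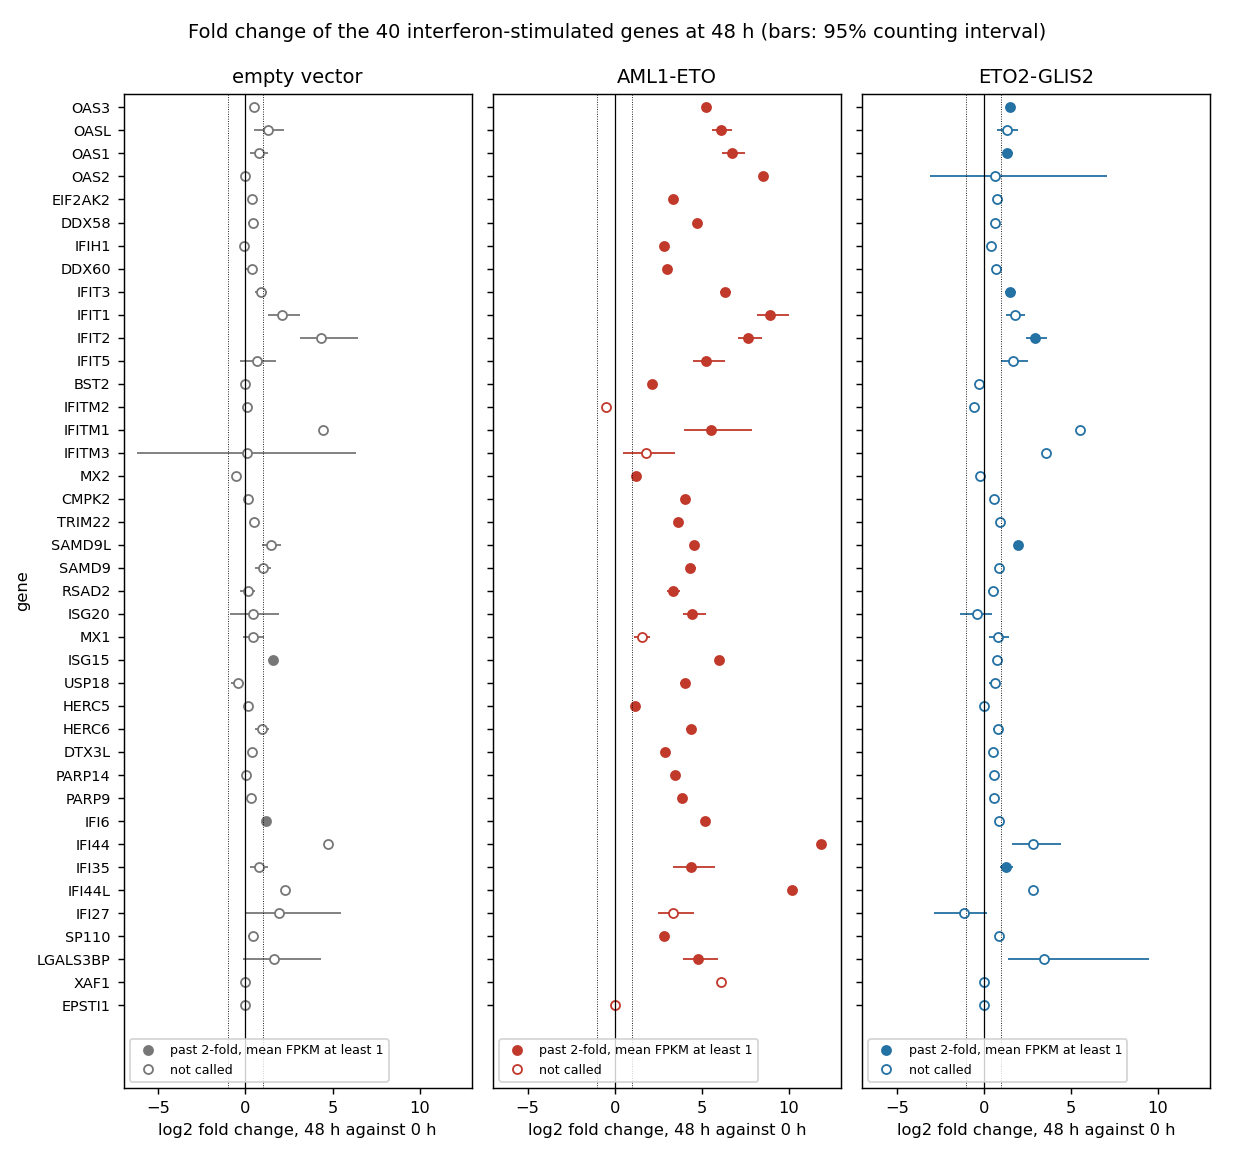
Log2 fold change at 48 h against 0 h of each member in the 3 lines, with filled points for genes past 2-fold at a mean of at least 1 FPKM, open points for the others, and bars for 95% counting intervals (no bar where a library had 0 reads). In the AML1-ETO panel 34 points are filled and IFITM2 alone lies below 0, against 6 filled in the ETO2-GLIS2 panel and 2 in the empty vector panel.

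In ETO2-GLIS2 cells the changes were smaller. At 48 h 6 members were called higher (OAS1, OAS3, IFIT2, IFIT3, SAMD9L and IFI35), which is 23.1% of the 26 members that passed the filter, against 10.6% of 11642 genes, and none lower, against 2.51%. The median log2 fold change was 0.83, against 0.15 for all genes. At 12 h 25 members passed the filter and none was called (2.94% of genes higher and 1.38% lower), and the median was 0.25. At 48 h the counting interval was above 0 for 30 members and below 0 for IFITM2, BST2 and MX2. The share of all genes with such intervals was not computed, and the median of all genes was itself above 0. Of 25 members with at least 1 FPKM at 0 h, 5 were past 2-fold above 0 h, against 6.29% of 11065 genes. Their median was 0.72, against 0.11 for all such genes.

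Empty vector cells, which received doxycycline without a fusion, showed smaller shifts, with a counting interval above 0 at 48 h for 20 members and below 0 for MX2 and USP18. Here too no share of all genes by interval was computed. ISG15 and IFI6 were called higher at 48 h, 9.09% of the 22 members that passed the filter, against 7.82% of 11563 genes, and none lower, against 2.90%. The median was 0.48 against 0.16 for all genes, and 0.43 with IFITM1, IFI44 and IFI44L, which had no reads at 0 h, set at the bound that 3 reads give. At 12 h 21 members passed the filter and none was called (5.49% of genes higher and 1.76% lower). Of 21 members with at least 1 FPKM at 0 h, the same 2 were past 2-fold, against 4.72% of 11272 genes. Their median was 0.36, against 0.12 for all such genes. With the change in empty vector cells subtracted, 34 members were past 2-fold above 0 h with AML1-ETO and 2 with ETO2-GLIS2. The lines share no libraries in these comparisons other than in that subtraction, and the difference between lines was not tested.

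The lines also differed before induction. Against the uninduced empty vector line, the uninduced ETO2-GLIS2 line had 5 members called higher (OAS1, SAMD9, SAMD9L, ISG15 and IFI6) and none lower. This is 20% of the 25 members that passed the filter, against 3.40% of genes called higher and 2.85% lower, with a median log2 difference of 0.47 against -0.02. SAMD9L and SAMD9 differed most among these, at 6.13-fold (4.39 to 8.77) and 4.89-fold (3.70 to 6.57). The uninduced AML1-ETO line had SAMD9L (6.97-fold) and IFI6 (2.58-fold) called higher and OAS3 called lower (0.473 of the empty vector level, 0.416 to 0.538). These are 9.52% and 4.76% of the 21 members that passed the filter, against 2.57% and 2.10% of genes, with a median of 0.08. Both comparisons share the uninduced empty vector library. OAS1 was lowest in uninduced AML1-ETO cells, at 0.256 FPKM, against 0.697 in the empty vector and 1.42 in ETO2-GLIS2 cells, so that its fold rise with AML1-ETO depended on the reference. Measured from uninduced empty vector cells, OAS1 in AML1-ETO cells at 48 h had a log2 fold change of 5.33, against 6.74 from their own 0 h library.

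Another list held 85 genes that are not members. It covered ligands, receptors, signaling proteins, inhibitors and sensors, but also 14 targets of interferon gamma and 10 of NF-kB, so it is not a list of upstream genes alone. In AML1-ETO cells at 48 h 40 of the 85 passed the filter, of which 16 (40%) were called higher and 7 (17.5%) lower, against 17.1% and 11.3% of all genes. Of the 16, 6 were targets of interferon gamma, 2 targets of NF-kB, 4 sensing genes, 2 JAK-STAT genes and 2 IRF genes. Of 3 receptor genes past the filter 0 were called higher and 1 lower. In ETO2-GLIS2 cells 37 passed, with 6 (16.2%) higher and 1 (2.70%) lower, against 10.6% and 2.51%, and in empty vector cells 36 passed, with 3 (8.33%) higher and 0 lower, against 7.82% and 2.90%. Here too a gene can pass the filter through the 48 h library alone, and these shares are a description. Of the 21 interferon genes, 18 were listed at 0 in every library, including IFNG and the type III genes. IFNB1, the type I interferon made by most cells, had 4 reads in AML1-ETO cells at 48 h and 0 or 1 in the other libraries, which is too few to show a difference. Among the receptor genes, IFNAR1 was between 16.6 and 26.0 FPKM in all libraries, IFNAR2 was between 0.131 and 0.397 FPKM, and IFNGR2 fell in AML1-ETO cells from 11.4 to 7.99 and 3.42 FPKM, while it was 10.9 to 16.3 FPKM elsewhere.

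STAT2 and IRF9, subunits of the complex that binds the response element, both rose in AML1-ETO cells at 48 h. STAT2 had 17.2, 18.6 and 21.2 FPKM with the empty vector, 19.2, 19.6 and 96.7 with AML1-ETO and 16.1, 16.1 and 26.2 with ETO2-GLIS2. IRF9 was at 0.412, 0.406 and 0.599 FPKM in empty vector cells, then 0.253, 0.344 and 2.5 in AML1-ETO cells, while ETO2-GLIS2 cells had 0.378, 0.359 and 0.956. The rises were 5.03-fold and 9.88-fold. Neither was called in the other lines, although IRF9 in ETO2-GLIS2 cells at 48 h was past 2-fold above 0 h and under the filter. JAK1, JAK2 and TYK2 were not called in any line. IRF7 drives the later wave of interferon genes. IRF7 had 3.72, 5.92 and 6.29 FPKM with the empty vector, 4.78, 4.42 and 96.6 with AML1-ETO and 4.88, 6.16 and 12.3 with ETO2-GLIS2. IRF7 was called in both fusion lines, at log2 fold changes of 4.33 with AML1-ETO and 1.33 with ETO2-GLIS2. IRF1 was at 0.877, 1.34 and 1.63 FPKM in empty vector cells, then 0.822, 0.816 and 1.03 in AML1-ETO cells, while ETO2-GLIS2 cells had 1.02, 1.37 and 2.18. IRF1, a target of interferon gamma, was called in ETO2-GLIS2 cells alone, at a log2 fold change of 1.09, just past 2-fold. It also rose in empty vector cells, from 0.877 to 1.63 FPKM, short of 2-fold, so that its rise was not particular to ETO2-GLIS2. IRF8 and IRF5, factors of the myeloid lineage, moved the other way. IRF8 had 88.7, 71.7 and 51.1 FPKM with the empty vector, 91.9, 52.6 and 9.82 with AML1-ETO and 71.7, 43.6 and 18.9 with ETO2-GLIS2. IRF5 was at 25.9, 23.9 and 21.4 FPKM in empty vector cells, then 27.6, 12.5 and 5.02 in AML1-ETO cells, while ETO2-GLIS2 cells had 21.1, 19.4 and 23.5. IRF8 was called lower in both fusion lines, by -3.23 and -1.92 on the log2 scale, and IRF5 in AML1-ETO cells, by -2.46. IRF3 was called higher in AML1-ETO cells, at 1.03, just past 2-fold.

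**Figure D4:**
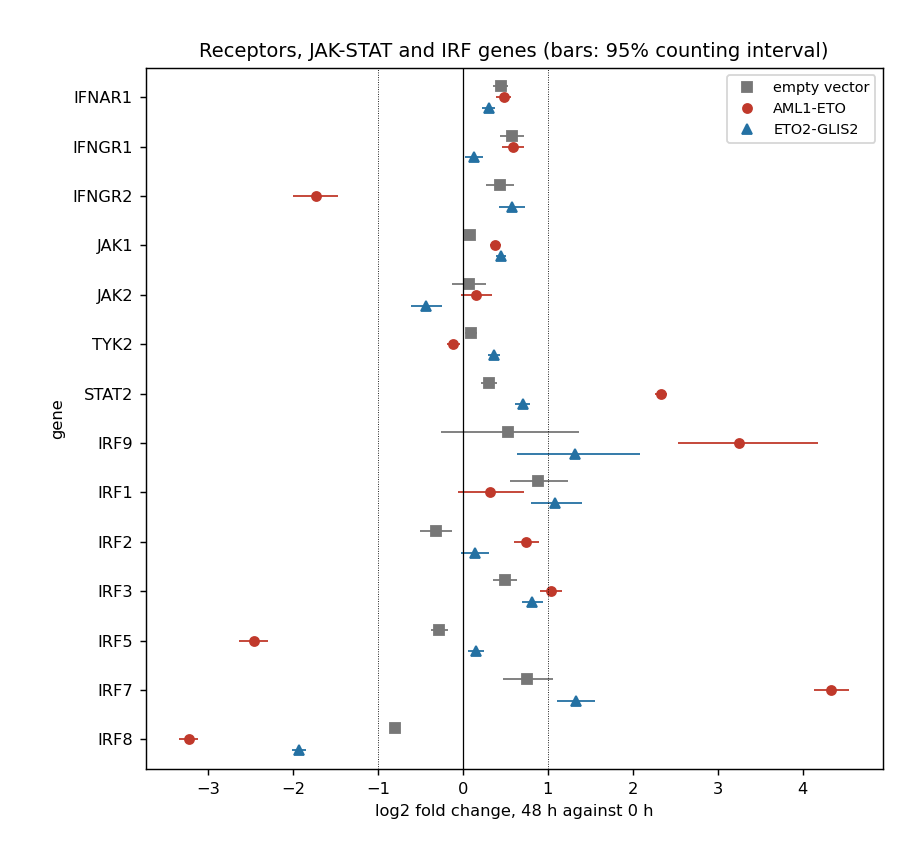
Log2 fold change at 48 h against 0 h of 14 receptor, JAK-STAT and IRF genes with a mean of at least 1 FPKM over the 2 libraries compared in some line, with markers for the 3 lines and bars for 95% counting intervals. STAT2, IRF9 and IRF7 lie to the right in AML1-ETO cells, at 2.33 to 4.33, and IFNGR2, IRF5 and IRF8 lie to the left, at -1.73 to -3.23.

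Of 16 genes of nucleic acid sensing, DHX58, IFI16, AIM2 and ADAR were called higher in AML1-ETO cells at 48 h and TMEM173, which encodes STING, was called lower. IFI16, a DNA sensor, was called in all 3 lines, with 5.10, 10.1 and 104 FPKM under AML1-ETO, 10.9, 17.5 and 35.5 under ETO2-GLIS2 and 5.18, 10.7 and 14 with the empty vector. Of 14 targets of interferon gamma 6 were called higher there, GBP3, CXCL10, CXCL11, WARS, TAP1 and PSMB9. CXCL10, a chemokine also induced by type I interferon, went from 0 to 0.331 and 33.3 FPKM, and CXCL11 was listed at 0 in all other libraries and at 4.54 FPKM in that one. WARS was called in all 3 lines, and PSMB9 in the AML1-ETO and empty vector lines. The guanylate binding proteins GBP1, GBP2, GBP4 and GBP5, classical targets of interferon gamma, were below 1 FPKM in every library. Below that level, GBP5 went from 0.0815 FPKM (11 reads) at 0 h to 0.912 FPKM (113 reads) at 48 h in AML1-ETO cells. In the same libraries GBP2 went from 4 to 16 reads and GBP1 from 0 to 4, and GBP4 had 0 reads throughout. Of 10 targets of NF-kB, CXCL8 and RELB were called higher and NFKBIA and TNF lower in AML1-ETO cells, while TNFAIP3 and CCL2 were called higher in ETO2-GLIS2 cells. Of 5 inhibitors of the pathway PTPN6, which encodes the phosphatase SHP-1, was called lower in AML1-ETO cells, from 46.1 to 8.69 FPKM, and SOCS1 and SOCS3 were below 1 FPKM throughout.

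Members with and without the core in the promoter window were set side by side. The median log2 fold change in AML1-ETO cells at 48 h was 4.35 for the 23 members with the core of 2-base spacing and 4.38 for the 10 without it, and 19 and 9 of them were called. Among the 10, OAS1, DDX58, IFI35, RSAD2, SP110 and XAF1 held a match of 1-base spacing. Only CMPK2, HERC6, PARP9 and SAMD9L lacked both, so the 2 groups do not divide members with a match from members without any. The 23 include EPSTI1 with a log2 fold change of 0. EPSTI1 had a core 50 bases before the start, and the core of MX1 began at base 12 after it.

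Members that are neighbors on a chromosome did not always move alike. In the 12 adjacent pairs of members, the log2 fold changes in AML1-ETO cells at 48 h ranged from -0.50 and 5.51 for IFITM2 and IFITM1 to 10.19 and 11.82 for IFI44L and IFI44, values of which the last pair depends on the pseudocount because of 0 reads at 0 h. The 52 nearest neighbors that are not members and had a mean of at least 1 FPKM had a median of 0.42 in the same comparison, against 0.18 for all genes. Of these 12 were past 2-fold above 0 h (23.1%, against 14.9% of all genes). Another 5 were past 2-fold below, where 11.3% of genes under the filter on the 2 libraries were lower. A neighbor can reach the mean through this library alone, as CCDC194 beside BST2 did, at 12.6 FPKM here and at most 1.29 elsewhere. Whether the higher neighbors are themselves targets of interferon was not tested. DDX60L, beside DDX60, went from 5.15 to 46.5 FPKM and TRIM5, beside TRIM22, from 2.92 to 13.8 FPKM, whereas FGR, beside IFI6, went from 23.8 to 1.07 FPKM. These 3 neighbors were chosen after their values were seen.

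Likeness to the profile of OAS1 over the 9 libraries was measured by Pearson's r on the log2 scale used for the fold changes. Among 8612 genes that reached 5 FPKM, the most alike were NQO1 (0.979), UBXN2A (0.975), GCC2 (0.974), PPP1R14C (0.974) and RESF1 (0.973). None of these is a member, and 6 members were among the first 50. Such a correlation rests largely on the AML1-ETO library at 48 h, which is the highest for OAS1 and for all 5 genes.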

How the data were processed

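The authors prepared RNA with TRIzol, made libraries with the TruSeq RNA version 2 kit, sequenced them on an Illumina instrument, aligned reads to hg38 with HISAT2 (2.0.5), handled alignments with SAMtools (1.7) and counted reads per gene with HTSeq (0.9.1, default settings). The submitters' processing notes also list DESeq2 (1.22.2). The annotation version is not given in the sources used here. The deposited values are FPKM per gene, 1 table for each of the 9 libraries, which the authors computed from the counts.

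Samples were grouped by line and hours of doxycycline from the labels. Log2 fold changes were computed on log2(FPKM + 0.01), on which the change of genes with few or no reads depends on the 0.01. A gene was called past 2-fold where the mean FPKM of the 2 libraries was at least 1. With 1 library for each condition no test was made. Names of members and pathway genes, and the promoters shown, were chosen with earlier results of these data known. Values in all 9 libraries are given for every member called at 48 h in a fusion line and for the OAS genes, and the others are given by counts and ranges. A pathway gene and a cell marker of the lists are not reported here.

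Reads were recovered from the steps of low FPKM values (whole to within 0.02 reads for 99.5% of 23889 identifiers above 0 in at least 3 libraries), and were used for the exact 95% intervals and for the floor of 3 reads. The recovery and the call were tested on simulated data. Promoters and gene positions came from RefSeq on GRCh38.p14, and exon overlaps, given as shares only, from GENCODE on GRCh37. Python 3.11.15 with numpy 2.4.6, pandas 2.3.3, scipy 1.17.1 and matplotlib 3.10.9 was used. Alternatives changed the filter, pseudocount, scaling, fold and reference library.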

Additional observations from a re-analysis of the deposited data

How the results depend on the processing

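No paired analysis was possible because each condition had 1 library. In AML1-ETO cells at 48 h the 34 members called higher became 24 to 38 over the alternatives, with 24 when genes that moved past 2-fold with the empty vector were left out, and none was lower under any. The other counts were small and moved with the settings, and the cause was not tested where the setting does not itself add or remove genes. With no filter on low expression, 4 members were higher and 1 lower in empty vector cells at 12 h and 11 higher at 48 h, 2 were higher and 2 lower in AML1-ETO cells at 12 h, 4 were higher and 1 lower in ETO2-GLIS2 cells at 12 h, and 14 were higher and 1 lower at 48 h. With a mean of at least 5 FPKM, 3 were higher in ETO2-GLIS2 cells at 48 h. At 1.5-fold, 2 and 5 were higher in empty vector cells at 12 and 48 h, 5 in AML1-ETO cells at 12 h, and 5 and 18 in ETO2-GLIS2 cells. With 0 h of the empty vector line as reference, 5 were higher and 1 lower in AML1-ETO cells at 12 h, and 7 and 16 were higher in ETO2-GLIS2 cells at 12 and 48 h. With the empty vector line subtracted, 1 was higher and 1 lower in AML1-ETO cells at 12 h, and 2 were higher and 1 lower in ETO2-GLIS2 cells at 48 h.

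The alternatives for uninduced cells and pathway genes were chosen after seeing the data. Uninduced AML1-ETO against empty vector cells had 8 members higher and 3 lower with no filter, 1 and 0 at a mean of at least 5 FPKM, and 0 lower with a pseudocount of 1. Uninduced ETO2-GLIS2 cells had 10 higher and 2 lower with no filter, 2 higher at a mean of at least 5 FPKM and 9 at 1.5-fold. Pathway genes at 48 h with no filter were 13 higher and 3 lower in empty vector cells, 27 higher in AML1-ETO cells, and 17 higher and 4 lower in ETO2-GLIS2 cells, at 1.5-fold 6 higher and 1 lower in empty vector cells and 12 higher in ETO2-GLIS2 cells, and at a mean of at least 5 FPKM 3 higher in ETO2-GLIS2 cells. The 6 pathway genes higher in ETO2-GLIS2 cells became 4 after rescaling by the median ratio, and 4 with a pseudocount of 1.

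With a pseudocount of 1 the medians of the members at 48 h were 0.32, 3.33 and 0.57 in the empty vector, AML1-ETO and ETO2-GLIS2 lines, and the log2 fold change of OAS1 was 4.55 with AML1-ETO and 0.93 with ETO2-GLIS2. In ETO2-GLIS2 cells the median was 1.35 and OAS1 2.35 from 0 h of the empty vector line, and 0.37 and 0.57 with that line subtracted. OAS1 in AML1-ETO cells was 5.33 and 5.97 under these. IFIT2 in ETO2-GLIS2 cells reversed to -1.37 with the empty vector line subtracted, and no other called member changed sign. The results are limited by a single library for each condition, and for members near 0 by few reads.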
